A study of Homo sapiens with 4 samples.

Results

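The genes described here are 9 members of the complement system, measured in the established human cell line FaDu, which derives from a hypopharyngeal squamous tumour. They are C1R and C1S, proteases of the classical pathway, C3, the central component, CFB, of the alternative pathway, and the regulators SERPING1, CFI, CD46, CD55 and CD59. They are 9 of the 60649 gene rows of the count table, and all 9 passed the filter on low counts that left 18771 genes. The genes were chosen by name for their place in the pathway, with earlier results of the same comparison known, so their counts and fold changes are given as a description and with no test. One group of cells overexpressed TINCR-HA-FLAG, which carries 2 short epitope tags, HA and FLAG, and the other carried an empty vector. Both groups were grown in MEM alpha Glutamax with 10% fetal bovine serum. Each group had 2 libraries, 4 in all, and the series calls the replicates technical, so every p-value below reflects no more than library-to-library spread, possibly technical. Of the construct's promoter, how it was introduced and whether the cells were 1 clone, nothing is stated in the labels.

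Complement is a cascade of secreted proteases and binding proteins that tags surfaces for clearance and can pierce membranes. The classical pathway starts when the C1 complex, whose enzymes are C1R and C1S, binds a target. All pathways meet at the cleavage of C3, and factor B, the product of CFB, supplies the protease of the alternative C3 convertase. SERPING1 encodes the C1 inhibitor, a serpin that blocks C1R and C1S. Factor I, from CFI, cuts C3b and C4b with the help of cofactors such as CD46, while CD55 speeds the decay of convertases and CD59 blocks the membrane attack complex. The liver makes most plasma complement, but epithelial cells also make several components and carry the membrane regulators.

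Library totals were 17069533 and 17315648 counts for the empty vector, against 18151424 and 22331602 for TINCR-HA-FLAG. TINCR itself had 68 and 64 counts against 1921 and 2943, or 3.97 and 3.77 against 104 and 133 CPM (counts per 1000000 of the TMM-scaled library total), which is in the direction of the labels. Mitochondrial genes took 7.58% to 9.43% of counts in the controls, against 8.66% to 11.4% with TINCR-HA-FLAG, and the first library of each group had the larger share. All 12 squamous epithelial markers listed passed the filter. Their summed level was 8535 and 9836 CPM with the empty vector and 7162 and 8581 CPM with TINCR-HA-FLAG, so the groups overlapped. KRT5 had 4156 and 4759 against 3314 and 3837 CPM, lower in both TINCR-HA-FLAG libraries. Of 8 hepatocyte markers, APOB and TTR were at 0 in every library and ALB had at most 3 counts. The summed hepatocyte markers lay between 0.236 and 0.817 CPM with the empty vector and between 0.406 and 1.09 CPM with TINCR-HA-FLAG. For 8 fibroblast markers, none at 0 in every library, these sums were 42.6 to 46.6 and 51.4 to 51.5 CPM. For 8 macrophage and monocyte markers, with CD163 at 0, they were 12.7 to 14.3 and 10.6 to 13.7 CPM. Summed over 7 endothelial markers, none at 0 in every library, the level was 25.0 to 25.8 CPM with the empty vector and 49.2 to 52.7 CPM with TINCR-HA-FLAG. CDH5, at 12.2 and 13.7 against 34.6 and 38.6 CPM, made up most of that difference, and the part of these markers in the results below was not tested. In such bulk RNA, more cells that make a transcript and more RNA per cell cannot be told apart.

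C3 and SERPING1 differed most between the groups, each with more than 2-fold higher means with TINCR-HA-FLAG. CFB had the next largest fold, with groups that overlapped, followed by CD55, C1R and CD59. For C1S, CFI and CD46 the estimates lay near 0. All 9 log2 fold changes were positive, with a median of 0.26 beside 0.0042 over all genes tested. C3 was the 1 member of 9 past the threshold of an adjusted p under 0.05 in edgeR over all genes, a threshold that 0.453% of all genes passed in the same direction and 0.0959% in the other. Both TINCR-HA-FLAG libraries lay above both empty vector libraries for 5 members, C3, SERPING1, C1R, CD55 and CD59, a pattern that 21.7% of all tested genes had. No member had both libraries lower, as 17.9% of all genes did. Since the genes were named with this contrast known, nothing is read from these counts.

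**Figure D1:**
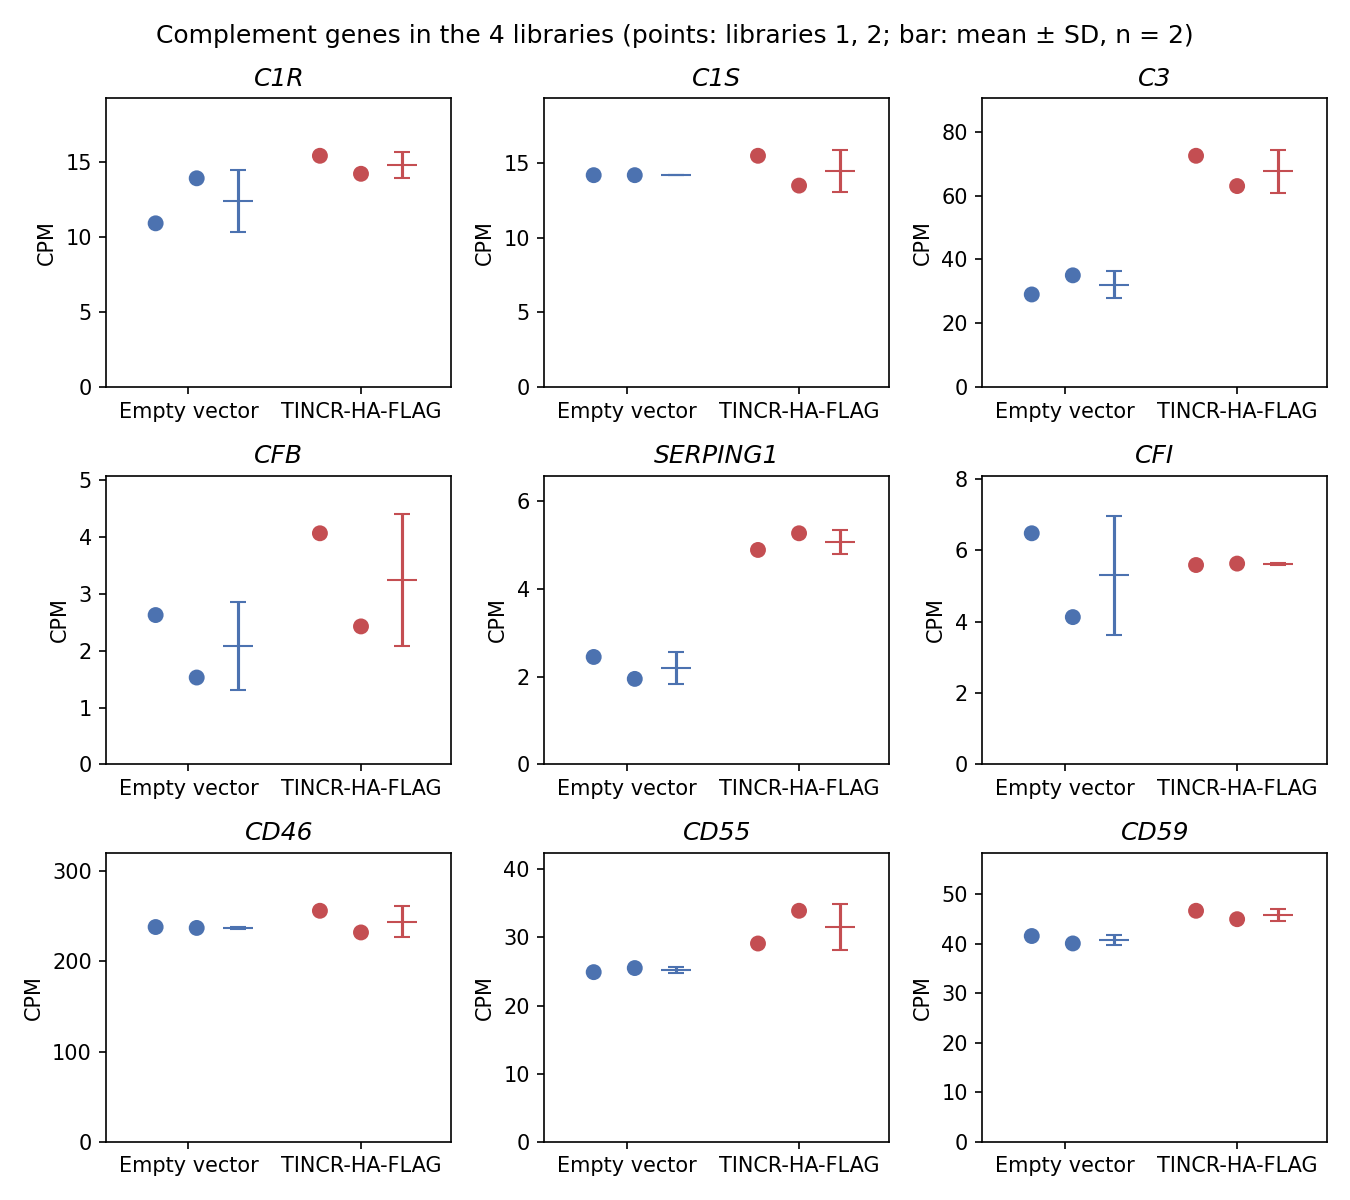
Level of each of the 9 complement genes (CPM, linear axis from 0) in the 2 empty vector libraries (blue points) and the 2 TINCR-HA-FLAG libraries (red points), with the mean and SD of each group beside them. The groups lie far apart for C3 and SERPING1, and overlap for CFB, CFI, C1S and CD46.

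The C1 proteases were at similar levels in both groups. C1R (ENSG00000159403.18, GRCh38 chromosome 12, 7080199 to 7092607, minus strand) had 10.9 and 13.9 CPM with the empty vector and 15.4 and 14.2 CPM with TINCR-HA-FLAG. The groups did not overlap, but the second empty vector library lay just below the lower TINCR-HA-FLAG library. The log2 fold change was 0.26 (SE 0.17), which became 0.053 without empty vector replicate 1, or 0.44 with that library kept and empty vector replicate 2 left out. C1R shares 672 exonic bases on the same strand with its neighbour C1RL, so reads there could be assigned to either gene or to neither.

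C1S (ENSG00000182326.15, chromosome 12, 6988259 to 7071032, plus strand) had 14.2 CPM in both empty vector libraries and 15.5 and 13.5 CPM with TINCR-HA-FLAG. The TINCR-HA-FLAG libraries lay on either side of the controls, with a log2 fold change of 0.027 (SE 0.15) and a 95% interval for the fold of 0.80 to 1.29. The estimate turned to -0.066 without TINCR-HA-FLAG replicate 1 and to -0.012 without empty vector replicate 1. C1S shares 229 exonic bases on the same strand with EMG1.

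SERPING1, the gene of the inhibitor of both proteases, had the largest fold of the 9 genes. SERPING1 (ENSG00000149131.17, chromosome 11, 57597387 to 57614853, plus strand) had 42 and 33 counts in the controls, against 90 and 117 with TINCR-HA-FLAG, or 2.45 and 1.95 against 4.89 and 5.27 CPM. Both TINCR-HA-FLAG libraries lay above both controls, and the means were 2.2 ± 0.357 and 5.08 ± 0.273 CPM (SD, n = 2 per group). The fold was 2.31, a log2 fold change of 1.21 (SE 0.30). It did not reach the threshold that C3 passed, and 1.30% of all genes tested had a larger log2 fold change. It had far fewer counts than C3, and its 95% interval for the fold ran from 1.46 to 3.65. Leaving out 1 library at a time gave log2 fold changes between 1.06 and 1.34.

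C3, from which C3a and C3b are cut, had the highest level per exon length among the secreted members of the 9 genes. C3 (ENSG00000125730.17, chromosome 19, 6677704 to 6730562, minus strand) had 497 and 594 counts in the controls, against 1335 and 1397 with TINCR-HA-FLAG. Scaled to library size, this was 29 and 35.0 CPM against 72.5 and 63.0 CPM. The gap between the groups was larger than the spread within either, with means of 32.0 ± 4.26 and 67.7 ± 6.74 CPM (SD, n = 2 per group). The fold was 2.11 with a 95% interval of 1.73 to 2.58, a log2 fold change of 1.08 (SE 0.13). It lay between 0.91 and 1.23 when each library was left out in turn, with the lowest value without empty vector replicate 1. A short noncoding gene annotated within an intron of C3 on the same strand, AC008760.2, chosen after its values were seen, had 1.34 and 1.06 CPM against 2.82 and 1.67 CPM. Reads of unspliced C3 RNA and of that gene cannot be told apart there.

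CFB (ENSG00000243649.9, chromosome 6, 31945650 to 31952084, plus strand) had the lowest level per exon length of the 9 genes. It had 45 and 26 counts in the controls, against 75 and 54 with TINCR-HA-FLAG, or 2.63 and 1.53 against 4.07 and 2.43 CPM. The groups overlapped, because empty vector replicate 1 lay above TINCR-HA-FLAG replicate 2. The log2 fold change of 0.62 (SE 0.40) ranged from 0.23 without TINCR-HA-FLAG replicate 1 to 1.02 without empty vector replicate 1. The 95% interval for the fold, 0.83 to 2.82, held both no change and the fold of C3, so with these libraries CFB could not be placed nearer to either. A readthrough gene that joins C2 to CFB and shares 2249 exonic bases with it had 0 counts in every library. Reads in those bases could have gone to CFB or to neither gene. If to neither, the level of CFB per exon length is understated, which was not tested.

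Promoter sequences were read from a RefSeq table of GRCh38.p14, which holds 250 bases before and 50 after each start, for 6 of the 9 genes (CFB, CFI, C1R, CD46, CD55 and CD59, 11 starts in all). Promoters of C3, C1S and SERPING1 were not analysed here. Matches were looked for on both strands to sequences bound by the transcription factors through which cytokines act on complement genes. The interferon-stimulated response element was searched as GAAA and GAAA parted by any 2 bases (read on the minus strand in CFB), the gamma-activated site as TTCNNNGAA, the C/EBP site as TTGCNNAA, and the NF-kB site by its consensus. CFB was the only member with a match to the first and to the NF-kB site, and it held the gamma-activated letters too. The matches are shown with their flanks because CFB, C1R and CD59 shared the gamma-activated letters. Capitals mark the matching bases, and a match is a description of the letters, not evidence of binding.
CFB, interferon-stimulated response element (chr6:31945945-31945974, plus strand, 140 bases before the start): acttctgcagTTTCTGTTTCcttgactggc
CFB, NF-kB site (chr6:31945973-31946002, plus strand, 112 bases before the start): gcagctcagcGGGGCCCTCCcgcttggatg
CFB, gamma-activated site (chr6:31945993-31946021, plus strand, 92 bases before the start): cgcttggatgTTCCGGGAAagtgatgtgg
C1R, gamma-activated site (chr12:7091961-7091989, minus strand, 86 bases before 1 of its 2 starts): gccagtcctaTTCCTGGAAggggagggga
CD59, gamma-activated site (chr11:33736589-33736617, minus strand, 128 and 184 bases before 2 of its 4 starts): ccacccggccTTCTCAGAAcctgggccag

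The gamma-activated letters stood in 4 of the 11 member promoters and in 7.66% of all 35116 promoters in the table. The interferon-stimulated letters stood in 1 of 11 and in 3.57% of all, the NF-kB letters in 1 of 11 and in 11.3% of all, and the C/EBP letters in 3 of 11, from C1R and CD59, and in 10.5% of all. Several starts of 1 gene overlap and are not independent. CFI, CD46 and CD55 held none of the 4 in these windows. In the GENCODE annotation the CFB stretches also lie in the first exon of a longer CFB transcript.

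Among the regulators, the soluble protease gene CFI (ENSG00000205403.14, chromosome 4, 109740694 to 109802179, minus strand) had 6.48 and 4.13 CPM with the empty vector and 5.59 and 5.63 CPM with TINCR-HA-FLAG. Both TINCR-HA-FLAG values lay between the controls. Its log2 fold change was 0.081 (SE 0.26), and it moved from 0.40 without empty vector replicate 1 to -0.20 without empty vector replicate 2. The 95% interval for the fold was 0.71 to 1.58. A second annotated gene shares 1562 exonic bases with CFI and had 0 counts in every library, so reads there could have gone to CFI or to neither gene.

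The membrane regulators differed less between the groups than C3 and SERPING1. CD46 (ENSG00000117335.20, chromosome 1, 207752057 to 207795513, plus strand), a cofactor for factor I, had 238 and 237 CPM with the empty vector and 256 and 232 CPM with TINCR-HA-FLAG. The groups overlapped, and the 95% interval for the fold, 0.87 to 1.21, held no change. Its log2 fold change of 0.042 (SE 0.11) turned to -0.025 without TINCR-HA-FLAG replicate 1.

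CD55 (ENSG00000196352.16, chromosome 1, 207321376 to 207386804, plus strand), the decay-accelerating factor gene, had 24.9 and 25.5 CPM with the empty vector and 29.1 and 33.9 CPM with TINCR-HA-FLAG. Both TINCR-HA-FLAG libraries were higher, with a log2 fold change of 0.32 (SE 0.13) that fell to 0.20 without TINCR-HA-FLAG replicate 2. CD59 (ENSG00000085063.17, chromosome 11, 33703010 to 33736491, minus strand), which encodes protectin, had 41.6 and 40.1 CPM against 46.7 and 45.0 CPM. The groups did not overlap, but the log2 fold change was small, at 0.17 (SE 0.11), and lay between 0.15 and 0.19 without each library in turn. CD59 shares 629 exonic bases with another annotated gene that had 0 counts in every library, so reads there could have gone to CD59 or to neither gene.

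**Figure D2:**
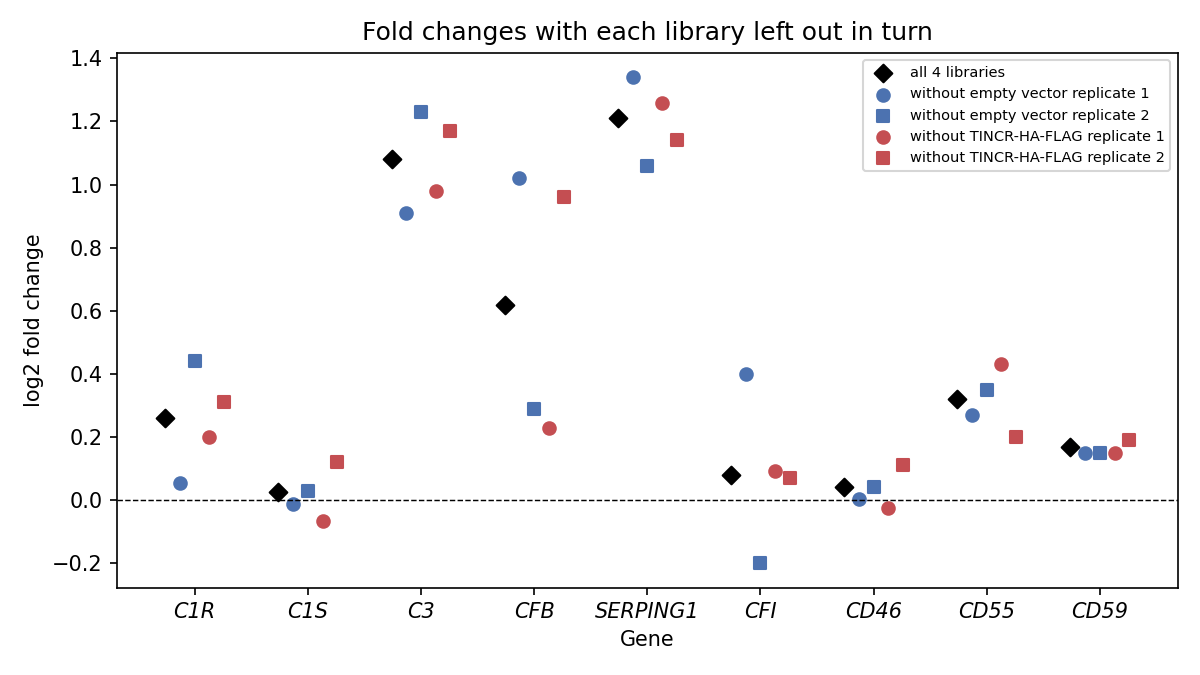
Log2 fold change (TINCR-HA-FLAG minus empty vector) of each of the 9 genes from all 4 libraries (black diamonds) and with 1 library left out (blue, an empty vector library, red, a TINCR-HA-FLAG library). The values for C3 stay between 0.91 and 1.23 and those for SERPING1 between 1.06 and 1.34, while CFB runs from 0.23 to 1.02 and CFI, C1S and CD46 cross 0.

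To compare genes with each other, counts were divided by merged exon length and scaled to the same total in each library. Merged length counts every annotated exon, and can exceed that of the transcripts present by amounts that differ between genes. Reads lost where genes overlap would also lower a level. The order, shares and ratios of different genes therefore hold for this scale only. CD46 was highest in all 4 libraries, at 72.8 and 70.0 in the controls, against 76.9 and 69.7 with TINCR-HA-FLAG. With the empty vector CD55 (11.2 ± 0.0732), CD59 (10.3 ± 0.506) and C3 (10.1 ± 1.10; SD, n = 2 for each) followed, and the values of CD59 and C3 overlapped. C1S (5.75 ± 0.145) and C1R (5.50 ± 0.796) overlapped as well. CFI (2.86 ± 0.961), SERPING1 (1.60 ± 0.298) and CFB (1.10 ± 0.431) were lowest, and the lower SERPING1 value, 1.39, lay just under the higher CFB value, 1.40. In the TINCR-HA-FLAG libraries C3, at 22.7 and 19.8, stood second in both, above CD55 at 12.8 and 15.0 and CD59 at 11.8 and 11.4. SERPING1, at 3.54 and 3.83, stood above CFI at 3.0 and 3.02, while CFB, at 2.13 and 1.27, was last in every library.

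C3 made up 7.64% and 9.19% of the summed level of the 9 genes per exon length in the controls, against 15.6% and 14.6% with TINCR-HA-FLAG. The 3 membrane regulators together made up 77.9% and 77.2% against 69.5% and 70.8%, although their own summed level was 94.7 and 91.1 against 101 and 96.1. Per exon length, C3 was 0.128 and 0.155 times the level of CD46 with the empty vector and 0.296 and 0.284 times with TINCR-HA-FLAG. SERPING1 was 0.168 and 0.119 times the sum of its targets C1R and C1S with the empty vector, against 0.270 and 0.325 times. C1R over C1S was 0.845 and 1.08 against 1.09 and 1.16. These ratios use the same fold changes as above and add no independent measurement.

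**Figure D3:**
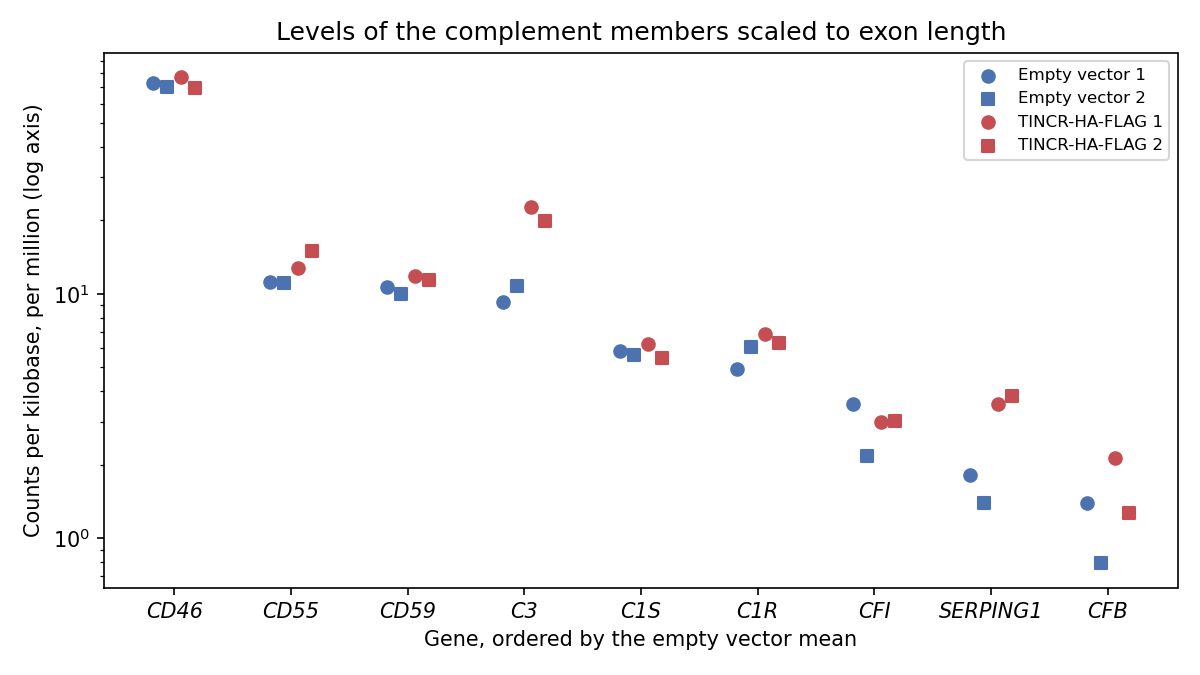
Level of each of the 9 genes per kilobase of exon at equal library totals (log axis) in the 4 libraries, ordered by the empty vector mean. On this scale, which uses the merged length of all annotated exons, CD46 is highest throughout and CFB is lowest in every library. C3 passes CD55 and CD59 in the TINCR-HA-FLAG libraries.

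Of 51 other complement genes listed by pathway membership, 19 passed the filter on low counts and none was called by edgeR in either direction, beside 0.453% of all genes called higher and 0.0959% called lower. An unadjusted edgeR p under 0.05 was found for 4 of the 19 and for 1913 of the 18771 genes in all, and DESeq2 called 1 higher and 1 lower. Among them 13 had positive and 6 negative log2 fold changes, with a median of 0.15. Earlier results of these data were known when the list was made, so these counts are a description.

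C1QBP, whose product binds C1q but resides mainly in mitochondria, had the highest counts of the list. It had 160 and 198 CPM with the empty vector and 111 and 133 CPM with TINCR-HA-FLAG (log2 fold change -0.55, SE 0.13, edgeR adjusted p = 0.14). Both TINCR-HA-FLAG libraries were lower, and C1QBP was called lower by DESeq2 (adjusted p = 0.023). Leaving out 1 library at a time gave log2 fold changes between -0.74 and -0.39. CLU, the gene of clusterin, a chaperone that binds terminal complement complexes, had 36.7 and 44.8 against 25.3 and 35.2 CPM (log2 fold change -0.42, SE 0.16, edgeR adjusted p = 0.41). Its log2 fold change lay between -0.69 and -0.2 when each library was left out in turn. C1RL, related to C1R, had 38.6 and 34.5 against 43.7 and 37.7 CPM, with groups that overlapped (edgeR adjusted p = 0.76).

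Of the 51 other complement genes, 32 did not pass the filter. Of 16 genes of recognition and the early classical or lectin pathway, 5 passed the filter, and the 11 others, with C1QA, C1QB, C1QC, MBL2 and MASP1 among them, had at most 10 counts in any library. C2, the classical counterpart of CFB, had 13 to 20 counts per library, and the near-identical C4A and C4B, between which reads could be split, had 17 to 36. Of 2 alternative pathway genes, CFD passed the filter, and the other had at most 5 counts in any library. CFD had 5.78 and 8.02 CPM with the empty vector and 6.14 and 7.57 CPM with TINCR-HA-FLAG. Of 7 terminal components, C5 (1.46 and 1.30 against 2.44 and 1.98 CPM) and C8G passed the filter, and the 5 others had at most 4 counts in any library. Among 10 receptors, 6 passed, and the C5a receptor gene C5AR1 had 1.93 and 1.89 against 3.48 and 3.65 CPM (log2 fold change 0.90, SE 0.32, edgeR adjusted p = 0.34). C2, C4A, C4B, CFD, C5, C8G and C5AR1 were named after their values were seen.

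**Figure D4:**
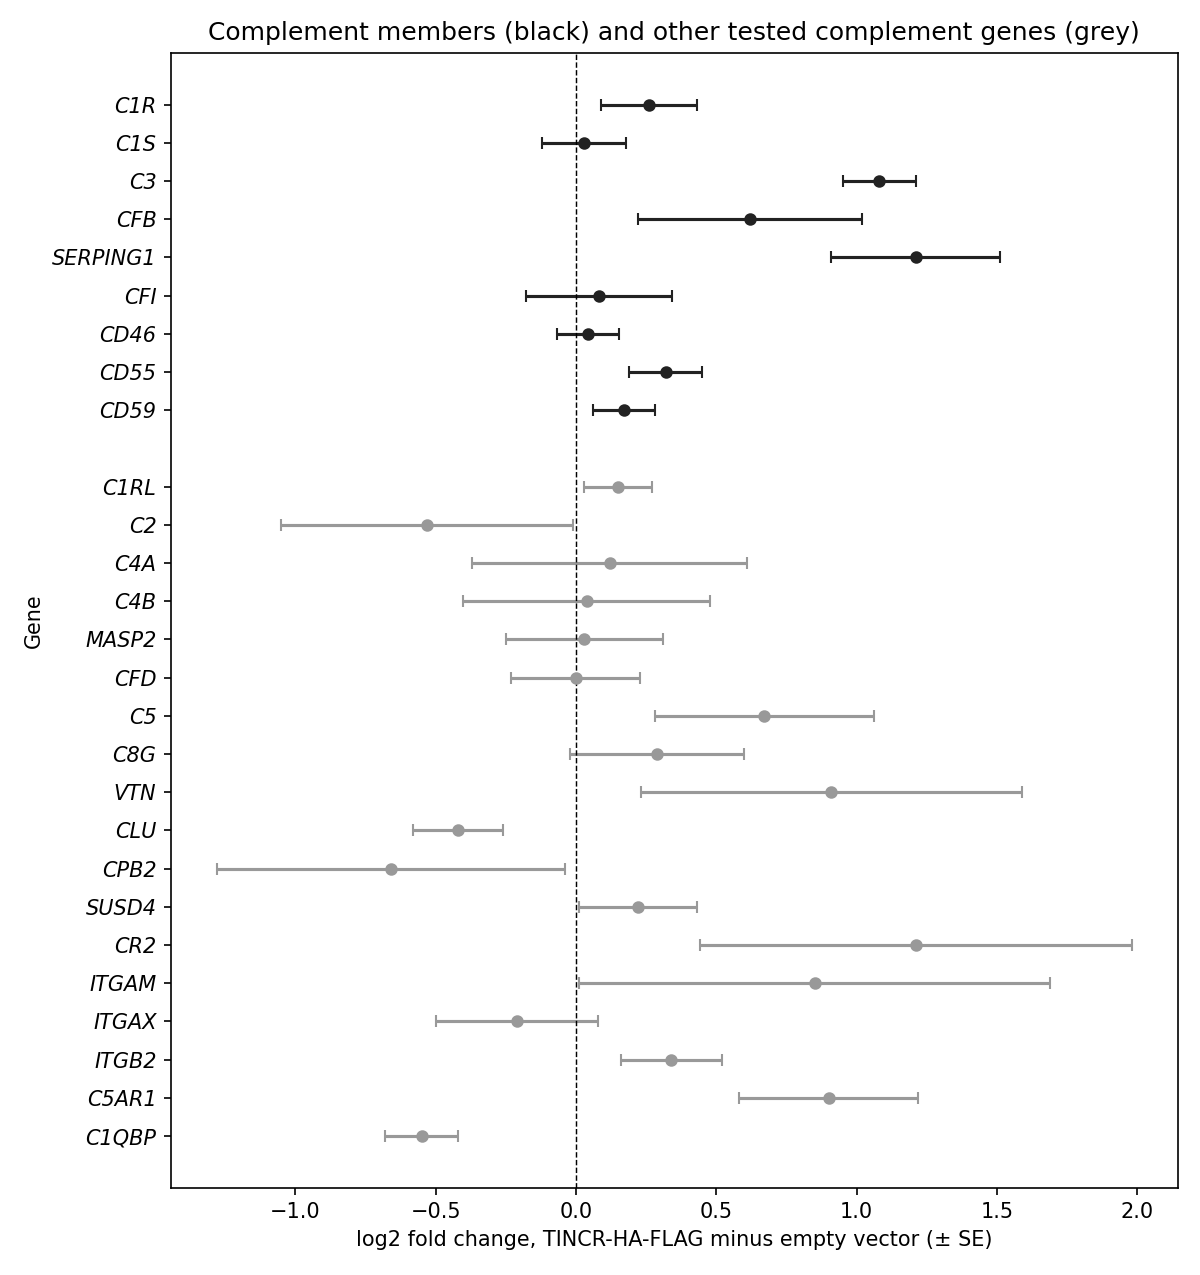
Log2 fold change (TINCR-HA-FLAG minus empty vector, points) with its SE (bars) for the 9 complement genes (black) and 18 of the 19 other complement genes that passed the filter (grey). All 9 black points are at or above 0, led by SERPING1 and C3, while the grey points lie on both sides of 0, from CPB2 at -0.66 to CR2 at 1.21, and 1 tested gene that is not reported here is not drawn.

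Secreted acute phase genes, which cytokines induce in liver and epithelium alongside C3 and CFB, were mostly under the filter. Of 15, the 3 tested were LCN2, CP and SERPINA1, with a median log2 fold change of 1.17, and 2 rose, beside 0.453% of all genes tested. This list was chosen with earlier results of these data known, so nothing is read from these counts. CP, the gene of the copper oxidase ceruloplasmin, rose from 35.0 and 35.1 to 89.9 and 68.3 CPM (log2 fold change 1.17, SE 0.14, edgeR adjusted p = 0.0047), a fold of 2.25. LCN2, whose product binds bacterial siderophores, rose from 21.0 and 27.9 to 80.2 and 83.4 CPM (edgeR adjusted p = 0.00052). SERPINA1, the antitrypsin gene, had 4.09 and 4.42 against 6.24 and 6.04 CPM and was not called (edgeR adjusted p = 0.48). SAA1 had 5 to 11 counts and HP 2 to 11 counts per library, and CRP, FGA and ORM1 had 0 in every library.

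Of 18 genes of the cytokine signals known to induce complement genes, 16 were tested, none rose and 2 fell, beside 0.453% and 0.0959% of all genes. The median log2 fold change was -0.13. As with the acute phase list, earlier results of these data were known when these genes were listed, so the counts are a description. The 2 were the interleukin 1 ligand genes, IL1A with 22.6 and 19.6 against 8.58 and 9.42 CPM (edgeR adjusted p = 0.0082) and IL1B with 32.0 and 31.3 against 15.2 and 14.5 CPM (edgeR adjusted p = 0.0047). The transcription factor genes STAT3 (190 and 202 against 200 and 210 CPM) and RELA (322 and 350 against 324 and 380 CPM) were not called, with edgeR adjusted p of 0.90 and 0.91. TNFRSF1A, a tumour necrosis factor receptor gene, had 174 and 188 against 165 and 175 CPM (edgeR adjusted p = 0.85). IFNG had 0 counts in every library and IL6 had 15 to 17. An unadjusted edgeR p under 0.05 was found for 3 of the 16, against 1913 of 18771 for all genes, and DESeq2 called 0 higher and 2 lower. The third was the interleukin 1 receptor gene IL1R1, with 2.16 and 1.59 against 2.82 and 4.19 CPM (log2 fold change 0.92, SE 0.36, edgeR adjusted p = 0.40), opposite in sign to the ligand genes. RNA levels do not show the activity of these factors.

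Across the 4 libraries, the genes whose log2 CPM (prior count 2), centred on each gene's mean, was nearest to that of C3 among 13608 other protein-coding genes were INSR, TP53INP1, CCDC80 and RHCG, at Euclidean distances of 0.0927 to 0.115. CCDC80, the gene of a matrix-associated protein, had 24.9 and 28.8 against 58.0 and 55.4 CPM, and the insulin receptor gene INSR had 7.53 and 9.32 against 17.8 and 16.0 CPM. No other complement gene was among these 4. With 4 libraries, a small distance says little beyond a like fold change, and it is given as a description.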

How the data were processed

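Total RNA came from RNeasy columns and libraries from a NEBNext Ultra kit, per the labels' protocols. The authors deposited 1 table of raw counts, whole numbers for each Ensembl gene and library. bcl2fastq 2.20.0.422, STAR 2.7.9a, DESeq2 1.32.0 and the GRCh38 build come from the submitters' processing notes, which give no roles. How reads were counted, on which strand and with which annotation: not given in the sources used here. Without strand, overlapping genes share reads. A further 12 library columns match none of the samples in the labels and stayed out. Columns were matched to sample titles by cell line, construct and replicate number.

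Symbols were matched by Ensembl identifier (60507 of 60649 rows) and positions from GENCODE (58381 rows). Counts were scaled by TMM, filtered with filterByExpr (18771 genes) and tested with edgeR 4.0.16 (quasi-likelihood, robust) in R 4.3.3, with Benjamini-Hochberg adjustment over all genes and a threshold of 0.05. Standard errors and 95% intervals come from that fit. The 3-count floor is 0.14 to 0.18 CPM, and it and all intervals leave out other sources of error. edgeR was tested on simulated data. Alternatives were DESeq2 1.42.0, RLE or library totals, no filter, 1 CPM in 2 libraries, a replicate block and leaving out each library.

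The members and gene lists were chosen with earlier results of these data known. Named genes are the 9 members, TINCR, called genes and the 4 most expressed of each list, and the genes nearest to C3. Some genes that this rule names are not reported here. Other genes given with values were chosen after their values were seen. The protein sequences that had been planned were not used here.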

Additional observations from a re-analysis of the deposited data

How the results depend on the processing

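C3 was past the threshold under every alternative that kept all 4 libraries, and the median log2 fold change of the 9 genes lay between 0.20 and 0.29 over all alternatives. The 9 genes were named with this contrast known and the alternatives use the same libraries, so this is a description and no further support. Over all genes, 85 were called higher and 18 lower. DESeq2 called 131 and 59, and 47 and 6 were called with no filter on low counts. Leaving out 1 library gave 69 to 226 higher and 45 to 160 lower. The cause was not tested. Among the other complement genes, DESeq2 called 1 higher and 1 lower, and leaving out 1 library gave 0 to 1 higher and 0 to 2 lower. The counts of called acute phase genes were the same under all alternatives.

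The titles number the libraries 1 and 2 in both groups, but no label says that a number marks a shared batch. Deviations of same-numbered libraries correlated at 0.37 across genes. With the replicate number as a block, which leaves 1 residual degree of freedom against 2 without it, 1317 genes were called higher and 1316 lower, with 3 of the 9 members higher (C3, SERPING1 and CD55), 2 other complement genes higher and 2 lower, and 2 inducer genes higher and 4 lower. CFB, CFI and SERPING1 had the fewest counts of the 9 genes, at 26 to 125 per library, and the largest SEs, from 0.26 to 0.40. How much of their spread came from depth was not tested.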
